A study of Mus musculus with 64 samples.

Results

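Venlafaxine, an antidepressant, was compared with saline in the prefrontal cortex (PFCx) of the mouse by sequencing of total RNA. The comparison holds 12 of the 64 libraries of the series, chosen by the tissue and treatment of their labels: 4 PFCx libraries after venlafaxine and 8 PFCx libraries after saline. The series covers 6 psychotropic drugs and saline in the PFCx and the nucleus accumbens (NAc), with 32 libraries in the PFCx. All mice were adult male C57BL/6N animals of 8 to 10 weeks that carried no engineered allele. The venlafaxine group received a single intraperitoneal injection of 16 mg/kg in saline, the control groups received saline alone, and every animal was decapitated 2 h later, so that a single early time and dose was read. The tissue was dissected from slices and took in the cingulate, prelimbic and infralimbic areas with part of the dorsal peduncular cortex.

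The saline titles separate 4 libraries as set I from 4 others as set II, and no drug library carries a set in its label. In the NAc, the venlafaxine libraries listed 108515 to 110556 transcripts with an FPKM above 0, the set II saline libraries 109231 to 110063 and the set I saline libraries 85397 to 87827. Venlafaxine therefore lay with saline set II in that count. In the PFCx the same count did not separate the groups. It was 108556 to 110620 after venlafaxine, 109321 to 110429 in saline set II and 109336 to 110378 in saline set I. Every comparison was made both with all 8 saline libraries and with the 4 of saline set II. FPKM is the number of fragments of a transcript scaled by its length and by the mapped fragments of the library. The 12 libraries held an estimated 1.52 to 2.79 gigabases of aligned sequence each, and the ranges of the 3 groups overlapped. Cortical markers were present in all of them: the summed FPKM of 9 excitatory neuron markers was 431 to 489 after venlafaxine, 387 to 505 in saline set II and 431 to 501 in saline set I. Saline set II replicate 4 stood apart from the other set II and venlafaxine libraries, with a summed FPKM of 104.9 over 9 markers of striatal neurons, against 33.1 to 39.3 in the other 7. In saline set I, replicate 4 was also raised, at 51.9 against 35.75 to 38.3 in the other set I libraries. Blood markers (5 globin and erythroid genes) summed to 36.7 to 65.7 after venlafaxine, 38.2 to 58.3 in saline set II and 88.9 to 127 in saline set I, and the part of these differences in the results below was not tested. As the samples are bulk tissue, fewer cells of a type and less RNA per cell cannot be told apart.

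Venlafaxine blocks the transporters that take serotonin and noradrenaline back into the axons that released them. The cell bodies of those axons lie in the raphe nuclei and the locus coeruleus of the brainstem, while the PFCx holds the axon endings and the neurons that carry the receptors. Released monoamines act there on G protein-coupled receptors, most of which signal through cyclic AMP, calcium or potassium channels. Changes in neuronal firing reach the nucleus within minutes to hours and switch on immediate early genes such as Fos, Arc and Nr4a1, which served as one of the gene lists below.

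The number of RNAs that separated the venlafaxine libraries from saline 2 h after the injection depended on the saline libraries used. Against all 8 saline libraries, 1 gene rose and 1 fell out of 36807 tested (adjusted p under 0.05, 0.00543% of genes), and 1 transcript fell out of 84728 tested (0.00118%), in a limma fit across all PFCx libraries. This gene count became 0 with a pseudocount of 0.1, a variance trend or only the compared libraries in the fit, and 1286 when saline set I alone was the control. Against saline set II, 274 genes passed (0.744%), of which 12 rose (0.0326%) and 262 fell (0.712%), and 163 transcripts passed (0.192%), of which 9 rose and 154 fell. The count of genes against saline set II ranged from 56 without saline set II replicate 1 to 463 without saline set II replicate 2, and the count against 8 saline libraries from 0 without venlafaxine replicate 1 to 15 without saline set II replicate 4. All 4 venlafaxine libraries lay above all 8 saline libraries for 59 genes (0.16%) and below them for 161 genes (0.437%). A random order of the 12 libraries gives either side with a probability of 0.00202 per gene. The share of genes above was lower than this level and the share below was higher. Genes are not independent, neither share was tested against the level, and full separation alone is not read as a response. The median difference over all genes was -0.02 against 8 saline libraries and -0.01 against saline set II, on the log2(FPKM + 1) scale used for all differences here, which understates changes of RNAs with low levels. At an unadjusted p under 0.05, 2639 genes (7.17%) differed from the 8 saline libraries and 3489 (9.48%) from saline set II. The labels do not say that the replicates came from separate animals, and the p-values measure the spread between these libraries. The features that passed both comparisons were the gene 2410131K14Rik, the short RNA gene Gm23153 and a transcript of Eif4g3. Both genes have a single listed transcript, which missed the threshold in the transcript tests. Its limma adjusted p against 8 saline libraries and saline set II was 0.080 and 0.055 for 2410131K14Rik. For Gm23153 it was 0.077 and 0.064.

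Eif4g3 encodes a scaffold protein of the translation initiation complex, which brings ribosomes to the cap of mRNAs. The gene spans chr4:137993022-138208508 (GRCm38, plus strand) and 15 of its transcripts were listed. The transcript ENSMUST00000084214 (6139 bases, 35 exons) and the transcript ENSMUST00000105831 (6235 bases, 36 exons) begin and end at the same bases and differ in 5 internal exons near the 5′ end. After the tenth shared codon, the first of them holds exons of 33 and 21 bases at chr4:138087533-138087565 and chr4:138095909-138095929, and the second holds exons of 16 and 5 bases at chr4:138091365-138091380 and chr4:138091769-138091773. The second also has an exon of 129 bases before the start codon, at chr4:138057949-138058077. The coding sequences predict proteins of 1578 and 1567 residues. The first 120 coding bases of both are shown because they hold the coding part that tells the transcripts apart, with the 54 and 21 unshared bases in capitals (GENCODE vM21 transcripts):
Eif4g3 ENSMUST00000084214: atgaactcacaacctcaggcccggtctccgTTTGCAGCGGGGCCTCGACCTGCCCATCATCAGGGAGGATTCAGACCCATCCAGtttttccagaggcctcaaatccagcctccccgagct
Eif4g3 ENSMUST00000105831: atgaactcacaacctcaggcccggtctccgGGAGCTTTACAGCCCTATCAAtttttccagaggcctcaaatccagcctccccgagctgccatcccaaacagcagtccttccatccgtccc

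The transcript ENSMUST00000084214 fell after venlafaxine in both comparisons. Its FPKM was 3.98, 2.56, 4.96 and 2.65 in the venlafaxine libraries, 5.03, 7.35, 6.48 and 7.33 in saline set II, and 8.71, 7.55, 7.14 and 6.99 in saline set I. Every venlafaxine library lay below every saline library, although venlafaxine replicate 3 and saline set II replicate 1 nearly met. The difference was -0.85 ± 0.13 (SE) against 8 saline libraries (adjusted p = 0.027) and -0.76 ± 0.14 against saline set II (adjusted p = 0.025). It passed in 11 of 21 fits against 8 saline libraries and in 9 of 16 fits against saline set II that varied the processing or left out a library, and the difference ranged from -1.02 to -0.75 in the former and from -0.91 to -0.65 in the latter.

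The transcript ENSMUST00000105831 moved the other way without passing the test. Its FPKM was 5.42, 5.87, 3.52 and 7.89 after venlafaxine, 2.77, 0.925, 2.45 and 1.89 in saline set II, and 0.114, 1.81, 1.16 and 3.51 in saline set I. The venlafaxine libraries lay above all 8 saline libraries, by 3.52 against 3.51 at the nearest point. The difference was 1.31 ± 0.27 against 8 saline libraries (adjusted p = 0.23) and 1.15 ± 0.32 against saline set II (adjusted p = 0.15).

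The sum of both transcripts was 8.43 to 10.5 FPKM after venlafaxine, 7.80 to 9.23 in saline set II and 8.30 to 10.5 in saline set I. The 6235-base transcript made up 57.7%, 69.6%, 41.5% and 74.9% of that sum in the venlafaxine libraries, 35.5%, 11.2%, 27.4% and 20.5% in saline set II, and 1.29%, 19.4%, 13.96% and 33.4% in saline set I. The share was thus higher in each venlafaxine library than in any saline library. The transcripts had been chosen for their difference, and the share is given as a description. It ranged from 35.4% to 57.7% after ketamine and from 26.9% to 44.5% after mianserin, so the ketamine and mianserin ranges reached into that of venlafaxine. FPKM of all Eif4g3 transcripts together was 22.0 ± 2.16 (SD, n = 4) after venlafaxine, 21.4 ± 1.64 in saline set II and 22.2 in saline set I, a difference of 0.03 ± 0.08 (SE) from set II (adjusted p = 0.95). Another coding transcript, ENSMUST00000203828, was at 5.31, 5.42 and 5.55 FPKM in the same order. Transcripts that share nearly all exons are split by the quantifier from few distinguishing reads, and the part of that step in the result was not tested.

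**Figure D1:**
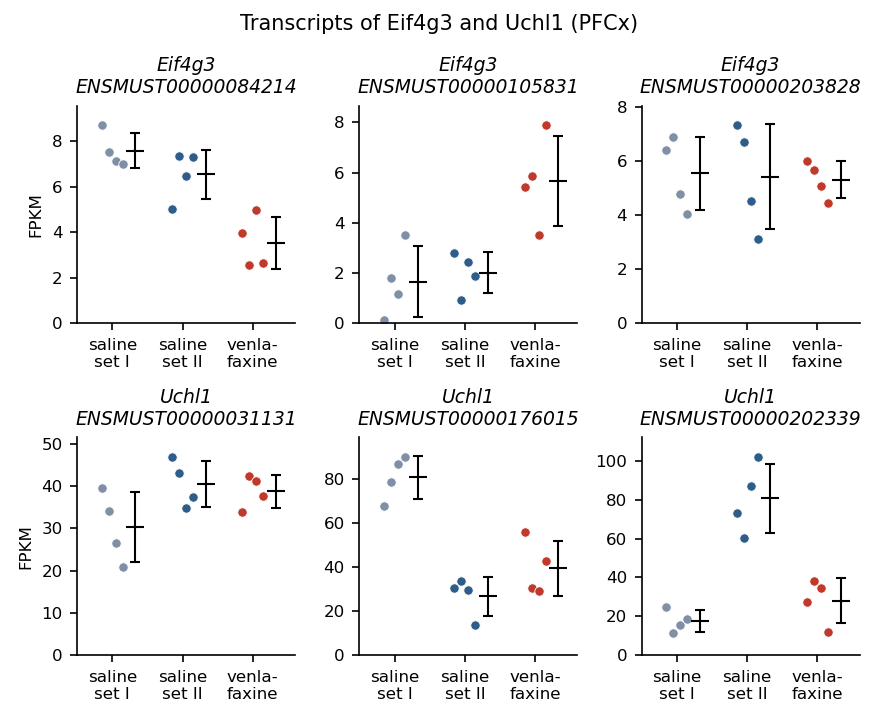
FPKM of single transcripts in the PFCx for Eif4g3 and Uchl1, with 1 point per library and the mean ± SD (n = 4) beside each group. The Eif4g3 transcript ENSMUST00000084214 is lower and ENSMUST00000105831 higher in all 4 venlafaxine libraries than in the 8 saline libraries, while the 1177-base Uchl1 transcript ENSMUST00000031131 overlaps between the groups.

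Of the genes that lay above all 8 saline libraries, 6 are described, 2410131K14Rik because it passed both gene tests and 5 more by the lowest p against saline set II. The separation of these 5 from saline was part of that choice and is not a further result. 2410131K14Rik (chr5:118245227-118266093) is a predicted protein-coding gene with 1 listed transcript of 5649 bases. Its FPKM was 2.59, 2.90, 2.42 and 2.62 after venlafaxine, 2.04, 2.07, 1.90 and 2.04 in saline set II, and 1.86, 1.89, 2.06 and 1.752 in saline set I. The gap between the lowest venlafaxine and the highest saline library was wider than the range within saline set II. The gene rose by 34.7% against the 8 saline libraries (log2 difference 0.30 ± 0.05, adjusted p = 0.039) and by 30.6% against saline set II (0.27 ± 0.06, adjusted p = 0.020). It passed in 9 of 21 fits against 8 saline libraries and in 8 of 16 against saline set II.

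Hrk encodes a BH3-only protein of the BCL2 family that promotes cell death. The gene lies on the same chromosome as 2410131K14Rik, at chr5:118164648-118189478, with 55748 bases between them. Hrk was at 5.77, 6.07, 6.36 and 6.17 FPKM after venlafaxine, 4.98, 5.16, 4.67 and 4.83 in saline set II, and 4.83, 5.71, 5.26 and 5.20 in saline set I. The lowest venlafaxine library, replicate 1, lay just above saline set I replicate 2, and the other libraries were further apart. Hrk rose by 24.1% against saline set II (0.26 ± 0.06, adjusted p = 0.034), and against 8 saline libraries the difference was 0.22 ± 0.05 (adjusted p = 0.24). Its 5382-base coding transcript was at 6.05 and 4.86 FPKM in the same groups, and the call against saline set II was kept in 6 of 16 fits.

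Rpl6 and Rpl32 encode proteins of the large ribosomal subunit. Rpl6 (chr5:121204481-121209241) was at 329, 314, 302 and 534 FPKM after venlafaxine, 175, 238, 207 and 213 in saline set II, and 180, 232, 173 and 183 in saline set I. The venlafaxine libraries were all higher, and replicate 4 stood far above the other 3. Rpl6 rose against saline set II (0.79 ± 0.19, adjusted p = 0.048), but not past the threshold against 8 saline libraries (0.85 ± 0.17, adjusted p = 0.13) or without venlafaxine replicate 4, where the difference from set II was 0.60. The level came from a 714-base transcript with a retained intron, ENSMUST00000197044, at 350 FPKM after venlafaxine and 189 in saline set II. The full-length coding transcript ENSMUST00000031617 was at 8.24 and 7.67 FPKM in these groups and at 20.2 in saline set I. Rpl32 (chr6:115805505-115808747) was at 116, 118, 126 and 192 FPKM after venlafaxine and between 84.3 and 108 in the 8 saline libraries, with replicate 4 again the highest. It did not pass either test (0.52 ± 0.14 against saline set II, adjusted p = 0.086).

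Gfra1 and Ctnnd1 were above all 8 saline libraries without passing a test. Gfra1, a receptor of the neurotrophic factor GDNF (chr19:58235604-58455909), was at 3.58, 4.90, 3.98 and 4.48 FPKM against a highest saline library of 3.57, and differed by 0.41 ± 0.12 from saline set II (adjusted p = 0.11). Its most abundant transcript, ENSMUST00000129100, was lower, with means of 1.23, 1.53 and 1.64 FPKM after venlafaxine and in saline sets II and I. The other 4 transcripts tested were higher than in saline set II. Ctnnd1, which encodes the p120 catenin of cell junctions (chr2:84600071-84650765), was at 13.1, 14.2, 13.4 and 13.8 FPKM against a highest saline library of 11.8, and differed by 0.31 ± 0.09 (adjusted p = 0.14). Most of this gene's difference from set II lay in a 676-base transcript that is not annotated as coding, ENSMUST00000131926. Its means were 3.81 FPKM after venlafaxine and 1.87 in saline set II (limma adjusted p = 0.45). Saline set II replicate 1 was at 1.287e-14 FPKM, which lowers that mean, and the other set II libraries were at 2.245 to 2.63. Of 14 Ctnnd1 transcripts tested, 8 were higher than in set II and 6 lower.

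The 5 genes described from those below all 8 saline libraries were chosen in the same way and include a pair of short noncoding RNAs. Gm23153 (chr1:190482845-190483157) is annotated as a short noncoding RNA of 313 bases of the class misc_RNA, and Gm24233 (chr12:59134072-59134193) as a small nucleolar RNA of 122 bases, a class that guides chemical modification of other RNAs. The whole sequence of Gm24233 is shown because such RNAs act through their sequence rather than a protein (GENCODE vM21 transcript), and no part is marked:
Gm24233 ENSMUST00000104317: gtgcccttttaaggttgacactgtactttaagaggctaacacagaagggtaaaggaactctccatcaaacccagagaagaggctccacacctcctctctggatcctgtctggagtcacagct

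Gm23153 fell in both gene comparisons. Its FPKM was 29.1, 34.8, 31.8 and 28.2 after venlafaxine, 80.3, 66.0, 68.7 and 39.4 in saline set II, and 121, 63.6, 69.1 and 106 in saline set I. The venlafaxine libraries kept within a narrow range below the lowest saline library, which was set II replicate 4. The difference was -1.22 ± 0.20 against 8 saline libraries (adjusted p = 0.039) and -0.97 ± 0.22 against saline set II (adjusted p = 0.032), and it passed in 8 of 21 and 8 of 16 fits. No other gene of the annotation held 50% or more of its 25-base words, and the largest share in another gene was 22.1%. After mianserin and ketamine Gm23153 was at 40.2 and 34.6 FPKM, and neither differed from venlafaxine past the threshold (adjusted p = 0.88 and 0.99).

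Gm24233 was at 10.9, 12.4, 8.49 and 11.1 FPKM after venlafaxine, 22.1, 13.6, 29.2 and 35.6 in saline set II, and 28.3, 22.7, 29.0 and 24.1 in saline set I. Saline set II replicate 2 came closest to the venlafaxine libraries. The gene fell against saline set II (-1.09 ± 0.24, adjusted p = 0.029) and missed the threshold against 8 saline libraries (-1.15 ± 0.21, adjusted p = 0.079). As 51% of its 25-base words also occur in 1 other gene, reads of that gene may be counted in it. The FPKM of RNAs this short depends strongly on the effective length that the quantifier assigns.

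The calls of Uchl1 and Bckdhb against saline set II held in 15 of 16 fits each, whereas each passed in 0 of 21 fits against 8 saline libraries. Uchl1, which encodes an abundant neuronal deubiquitinating enzyme (chr5:66676091-66687234), was at 122, 115, 108 and 93.5 FPKM after venlafaxine, 154, 140, 155 and 157 in saline set II, and 135, 127, 130 and 132 in saline set I. Both saline sets lay above venlafaxine, and set I lay nearer to it. Uchl1 fell by 27.7% against saline set II (-0.47 ± 0.08, adjusted p = 0.0053), and the difference from 8 saline libraries was -0.37 ± 0.07 (adjusted p = 0.13). At the level of transcripts, a retained-intron transcript of 228 bases was at 28.04 FPKM after venlafaxine, 80.7 in saline set II and 17.6 in saline set I (adjusted p = 0.28 against set II). Another retained-intron transcript, ENSMUST00000176015 of 980 bases, went the other way, at 39.4, 26.8 and 80.7 FPKM (adjusted p = 0.63 against set II), so different transcripts held the gene's difference from each saline set. The 1177-base coding transcript ENSMUST00000031131 was at 38.8 ± 3.85 (SD, n = 4), 40.6 ± 5.41 and 30.3 FPKM and overlapped between the groups.

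Bckdhb encodes a subunit of the branched-chain alpha-keto acid dehydrogenase, which breaks down leucine, isoleucine and valine in mitochondria (chr9:83925145-84124240). Its FPKM was 3.59, 5.01, 4.27 and 3.84 after venlafaxine, 6.96, 7.50, 6.47 and 6.27 in saline set II, and 5.39, 5.35, 6.16 and 5.15 in saline set I. Saline set I lay between the other groups. Bckdhb fell by 38.6% against saline set II (-0.60 ± 0.11, adjusted p = 0.0086), and the difference from 8 saline libraries was -0.47 ± 0.10 (adjusted p = 0.15). Its 1398-base coding transcript ENSMUST00000190166 also fell against saline set II, with means of 3.67 against 6.21 FPKM (-0.64 ± 0.13, adjusted p = 0.033).

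Samd5 (chr10:9627259-9675208), with 1 listed transcript, was at 1.69, 2.09, 1.84 and 1.89 FPKM after venlafaxine, 2.98, 3.07, 2.48 and 2.67 in saline set II, and 2.67, 2.89, 2.84 and 2.89 in saline set I. Both saline sets lay above venlafaxine, with nearly equal means of 2.80 and 2.82 FPKM. Samd5 fell by 32.8% against saline set II (-0.40 ± 0.09, adjusted p = 0.042), and the difference from 8 saline libraries was of the same size (-0.40 ± 0.08, adjusted p = 0.13). The call held in 5 of 16 fits. After ketamine Samd5 was at 2.10 FPKM and after mianserin at 2.81.

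**Figure D2:**
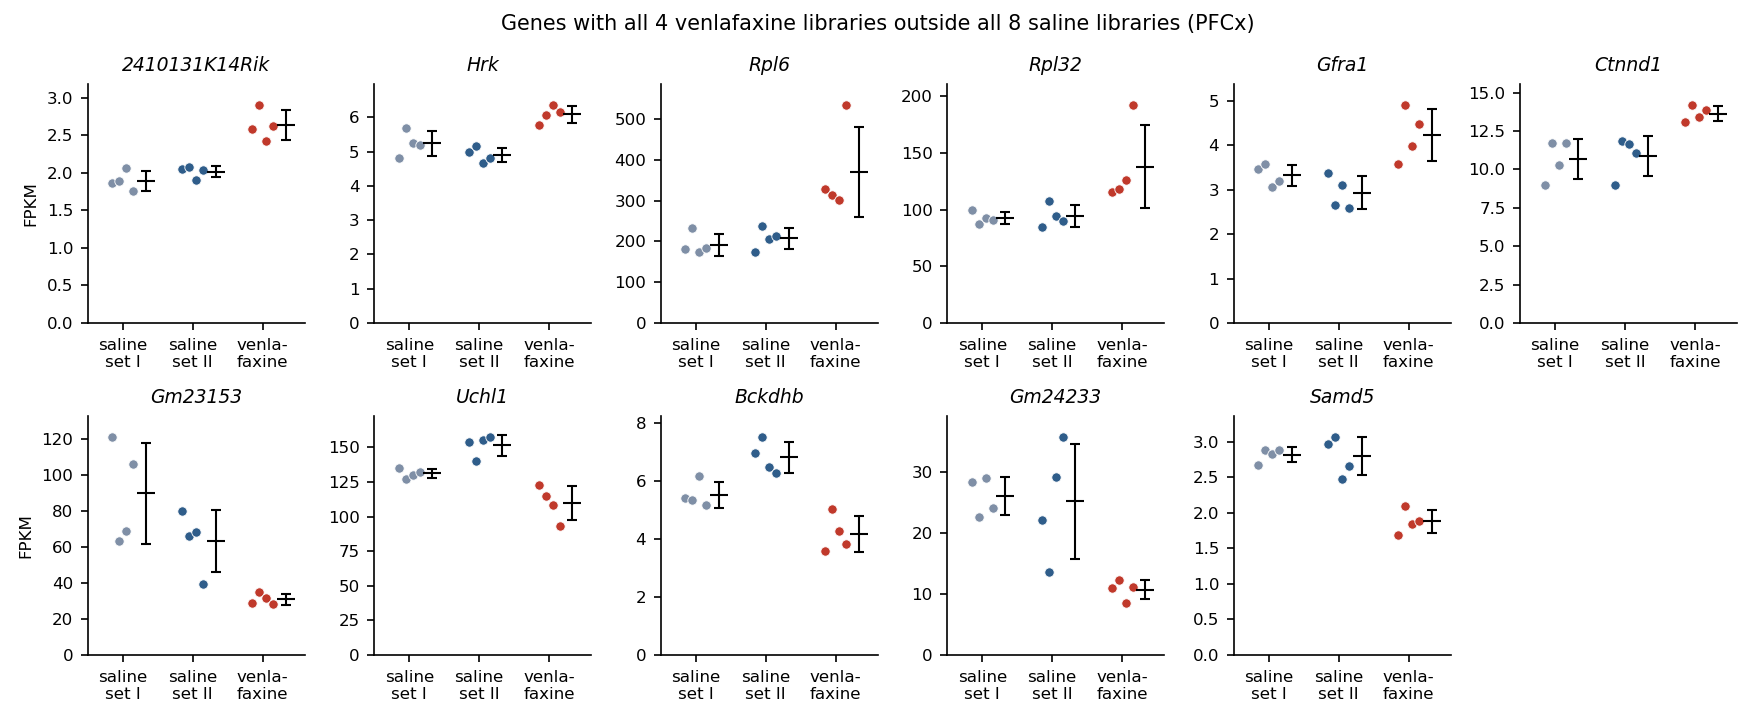
FPKM of the 11 described genes in the PFCx, with 1 point per library and the mean ± SD (n = 4) beside each group. The upper row shows genes chosen above all 8 saline libraries and the lower row genes chosen below them. Rpl6 and Rpl32 have 1 venlafaxine library, replicate 4, far above the other 3.

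The 262 genes that fell against saline set II were mostly low and noncoding. They included 93 of 1309 microRNA genes tested (7.10%), 49 of 5856 long noncoding RNA genes (0.837%), 39 of 2121 genes of the class TEC, transcripts still to be experimentally checked (1.84%), and 52 of 19053 protein-coding genes (0.273%). Their mean FPKM was under 1 for 153 of them. Saline set I did not share the high levels of saline set II. The venlafaxine mean was above the mean of saline set I for 180 of the 262 genes and lay within the range of saline set I for 138, and 9 of them lay below all 8 saline libraries.

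The level of these genes in each library shows where saline set II lay. The median log2(FPKM + 1) over the 262 genes was 1.24 to 1.61 in the saline set II libraries, 0.78 to 0.83 in the venlafaxine libraries, 0.59 to 0.78 in saline set I and 0.49 to 1.20 over the 28 PFCx libraries other than saline set II. The 4 saline set II libraries lay above all 28 others, as the choice of the genes favours, whereas the median over all genes tested, 0.70 to 0.81 in saline set II, overlapped with the 0.65 to 0.79 of the other libraries. For 102 of the 262 genes, each saline set II library was above each of the other 28. When saline set I alone served as control, 1286 genes passed, of which 188 were higher and 1098 lower after venlafaxine. What separates the saline sets, and its part in either count, was not tested.

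**Figure D3:**
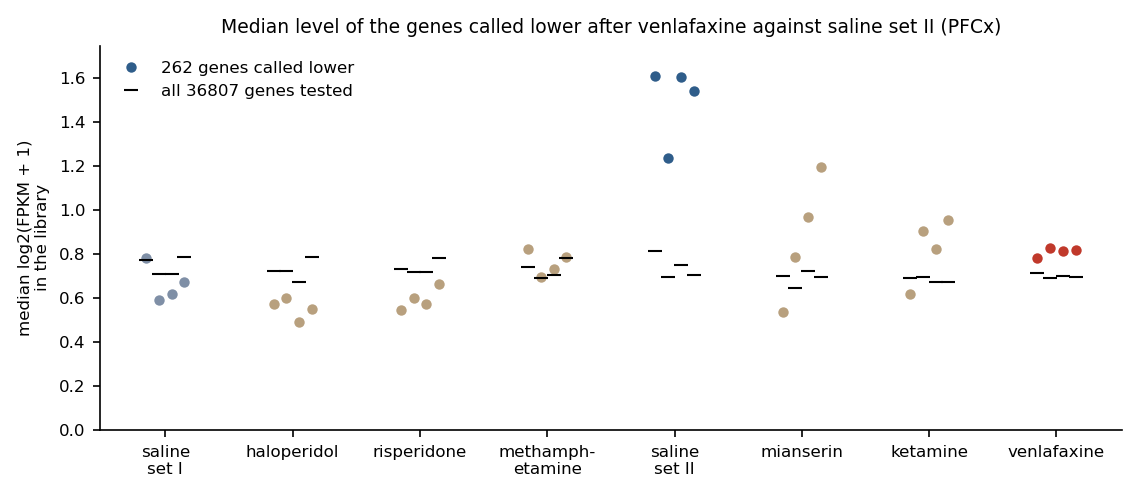
Median log2(FPKM + 1) in each of the 32 PFCx libraries over the 262 genes lower after venlafaxine than in saline set II (points) and over all 36807 genes tested (dashes). The 4 saline set II libraries lie between 1.24 and 1.61 and the 4 venlafaxine libraries between 0.78 and 0.83, near saline set I and the other drugs.

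Of the 52 protein-coding genes among them, 24 had a venlafaxine mean under that of saline set I. The examples that follow were chosen after their values were seen. Psmd9, a chaperone of proteasome assembly, was at 31.3 ± 17.3 FPKM after venlafaxine, 98.5 ± 29.5 in saline set II (SD, n = 4) and 16.5 in saline set I. Ncapd2, a condensin subunit, was at 13.6, 55.3 and 7.82 FPKM in these groups, and Tgfb1, the cytokine TGF-beta, at 1.76, 5.01 and 1.77. The venlafaxine means of all of them lay much nearer to saline set I than to saline set II. Klf6, a Krüppel-like transcription factor, was at 6.58, 8.40 and 7.53 FPKM with saline set I between the other groups.

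The 12 genes that rose against saline set II included 8 protein-coding genes, and 3 of the 12 lay above all 8 saline libraries. Blcap and Nnat, chosen after their values were seen, share a locus: Nnat (chr2:157560078-157562522), an imprinted gene that encodes a small membrane protein of the endoplasmic reticulum, lies within the span of Blcap (chr2:157556362-157571274). Nnat was at 35.0, 30.9, 26.4 and 31.2 FPKM after venlafaxine, 24.4, 19.7, 21.2 and 20.2 in saline set II, and 29.9, 32.2, 29.8 and 30.2 in saline set I. Venlafaxine was higher than set II in every library and overlapped with set I. Nnat rose by 44.6% against saline set II (0.51 ± 0.12, adjusted p = 0.034), and differed by 0.26 ± 0.13 from 8 saline libraries (adjusted p = 0.70). Blcap, at 17.8, 13.9 and 16.5 FPKM, rose by 28.4% against saline set II (0.34 ± 0.08, adjusted p = 0.040). Its 316-base transcript ENSMUST00000131902 was chosen for lying above all 8 saline libraries, by 2.951 against 2.93 FPKM at the nearest point. It rose against saline set II (1.02 ± 0.21, adjusted p = 0.039, passing in 8 of 16 fits), and the difference from 8 saline libraries was 0.67 (adjusted p = 0.62, passing in 0 of 21 fits). Whether reads of overlapping genes were split by strand is not given in the sources used here.

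The transcripts of the targets of venlafaxine were near the floor of detection in the PFCx, and those named here were chosen after their values were seen. Slc6a4, the serotonin transporter, was at 0.297 to 0.536 FPKM after venlafaxine and 0.200 to 0.507 in the 8 saline libraries, and Slc6a2, the noradrenaline transporter, at 0.115 to 0.183 against 0.123 to 0.220. Tph2, the enzyme that makes serotonin in neurons, was at 0.412 FPKM after venlafaxine and 0.460 in the 8 saline libraries. The groups overlapped for all of them.

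None of the 17 genes for serotonin receptors and metabolism and none of the 13 for adrenergic receptors and catecholamine metabolism passed either limma test, and 2 and 1 of them had an unadjusted p under 0.05 against saline set II (9.48% of all genes). Their median differences from saline set II were 0.02 and -0.01, against -0.01 for all genes. The members with the lowest p were receptors and an enzyme. Maoa, which degrades serotonin and noradrenaline, was at 2.89, 3.16, 2.72 and 2.86 FPKM after venlafaxine, 3.44 to 3.86 in saline set II and 3.11 to 3.15 in saline set I, with a difference of -0.25 ± 0.07 from set II (adjusted p = 0.10) that overlapped with set I. The Gi-coupled serotonin receptor Htr5a differed by 0.21 ± 0.08 (adjusted p = 0.35). The beta-adrenergic receptor Adrb1 was at 3.46, 3.11, 2.94 and 1.91 FPKM after venlafaxine and 3.11 to 4.76 in the 8 saline libraries (-0.34 ± 0.13 against set II, adjusted p = 0.31), and Adra1a differed by 0.17 ± 0.08 (adjusted p = 0.55). The receptors Htr2a and Htr1a were at 4.19 and 1.73 FPKM after venlafaxine and 4.76 and 1.80 in the 8 saline libraries, where all 12 libraries overlapped. They were chosen as the main cortical serotonin receptors.

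Activity-induced genes gave a single call. Of 22 immediate early transcription factors none passed in limma, 3 had an unadjusted p under 0.05, 14 lay under 0 against saline set II and the median difference was -0.05. Of 23 activity-induced effectors, which are synaptic, secreted and signalling genes, 1 fell, 6 had an unadjusted p under 0.05 (1 higher and 5 lower), 16 lay under 0 and the median was -0.06. Of all genes tested, 0.712% fell, 9.48% had an unadjusted p under 0.05 and 55.2% lay under 0. Against 8 saline libraries, 11 of the 22 factors lay under 0 (median 0.01) and 15 of the 23 effectors did (median -0.09). Of all 36807 genes, 22247 lay under 0 in that comparison (median -0.02). The downward lean of the factors was thus seen only against saline set II. The gene that fell was Homer1, which encodes a scaffold of the postsynaptic density that binds metabotropic glutamate receptors. Homer1 (chr13:93303757-93404129) was at 40.7, 45.6, 42.4 and 43.5 FPKM after venlafaxine, 57.6, 54.1, 54.3 and 57.7 in saline set II, and 40.2, 40.9, 43.3 and 47.1 in saline set I. Venlafaxine lay below saline set II without overlap and within the range of saline set I. The difference was -0.37 ± 0.07 from saline set II (adjusted p = 0.0086), passing in 14 of 16 fits, and -0.18 ± 0.09 from 8 saline libraries (adjusted p = 0.67), and it was 0.01 when saline set I alone served as control. None of its 10 transcripts tested passed.

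Nr4a1, an orphan nuclear receptor and the immediate early factor with the lowest p, was at 4.30, 3.41, 2.91 and 3.25 FPKM after venlafaxine, 5.75, 5.35, 5.44 and 4.25 in saline set II, and 5.02, 4.22, 3.79 and 5.35 in saline set I. Only venlafaxine replicate 1 reached into the saline range. The differences were -0.47 ± 0.12 from saline set II (adjusted p = 0.063) and -0.40 ± 0.11 from 8 saline libraries (adjusted p = 0.33). Exact two-sided permutation tests of this gene alone gave p = 0.057 and 0.010, where the design allows no less than 0.0286 and 0.00202. The gene was chosen by its p on these same libraries and these p-values are not adjusted for that choice. They are therefore not separate evidence. Ier3, with the next lowest p of this list, differed from set II by 0.37 ± 0.17 (adjusted p = 0.45). Among the factors named after their values were seen, Fos was at 6.01 ± 0.76 FPKM after venlafaxine, 6.17 ± 0.43 in saline set II (SD, n = 4) and 4.52 in saline set I, and Egr1 at 11.6, 13.7 and 11.3. Both overlapped with saline.

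Bdnf, a neurotrophic factor induced by activity and named here after its values were seen, was at 3.13, 2.81, 3.19 and 2.41 FPKM after venlafaxine, 3.69, 3.696, 3.92 and 2.94 in saline set II, and 4.19, 4.36, 3.91 and 4.38 in saline set I. Saline set II replicate 4 alone lay within the venlafaxine range. The difference was -0.33 ± 0.07 from 8 saline libraries (adjusted p = 0.15) and -0.23 ± 0.07 from saline set II (adjusted p = 0.17). Its most abundant transcript, ENSMUST00000111050, was at 1.23 FPKM in both groups.

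The other lists described gave no call. The median differences from saline set II were 0.07 for 22 glucocorticoid-responsive genes, of which 17 lay above 0 (77.3%, against 44.7% of all genes), and 0.06 for 19 circadian clock genes. They were -0.01 for 19 cold-induced and heat shock genes, -0.03 for 19 splicing regulators, 0.02 for 10 nuclear noncoding RNAs and paraspeckle proteins and 0.03 for 13 mitochondrially encoded mRNAs. Among the clock genes Per2, a repressor of the core loop, lay below all 8 saline libraries, at 3.27, 3.60, 3.39 and 3.06 FPKM after venlafaxine against 3.84 to 7.35, and did not pass (-0.56 ± 0.18 against 8 saline libraries, adjusted p = 0.44). Tef, an output gene of the clock, differed by 0.22 ± 0.09 from set II (adjusted p = 0.35). In the glucocorticoid list, Ddit4 differed by 0.32 ± 0.13 (adjusted p = 0.38), Sgk1 by 0.02 ± 0.11 (adjusted p = 0.99) and Fkbp5 by 0.16 ± 0.13 (adjusted p = 0.79).

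The 12 MAP kinase feedback inhibitors had a median difference of 0.00, with Dusp14 at 0.23 ± 0.11 (adjusted p = 0.49) and Spry2 at -0.21 ± 0.08 (adjusted p = 0.36). Dopamine receptors and 14 neuropeptide and interneuron genes gave none past the threshold. Of these 14 genes, 8 lay above 0 against saline set II (median 0.03) and 2 against 8 saline libraries (median -0.10). The neuropeptides Npy and Sst differed by 0.34 ± 0.14 and 0.27 ± 0.13 from saline set II (adjusted p = 0.38 and 0.52), and their venlafaxine and saline ranges overlapped. Across all 15 lists, 229 genes were tested, 0 passed by limma against 8 saline libraries and 2 passed against saline set II (0.873%, against 0.744% of all genes), Homer1 among them. At an unadjusted p under 0.05, 30 and 25 of them differed in these comparisons (13.1% and 10.9%, against 7.17% and 9.48% of all genes).

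Of the 15 genes that the study names for a drug effect, a list chosen on these libraries and not independent evidence, Homer1 passed against saline set II and the others passed neither test. Of all genes tested, 0.744% passed against saline set II and 0.00543% against 8 saline libraries. Dclk1, a microtubule-associated kinase and the gene the study centres on, was at 118, 115, 111 and 121 FPKM after venlafaxine, 105 to 120 in saline set II and 103 to 147 in saline set I (adjusted p = 0.92 against set II). All 15 Dclk1 transcripts overlapped between venlafaxine and the saline libraries of both sets together, and none passed. Of all transcripts, 0.192% passed against saline set II and 0.00118% against 8 saline libraries, so nothing is read from this count. The one with the lowest p against saline set II, ENSMUST00000167204, differed by -0.24 ± 0.09 from that set. Its means were 8.66, 10.4 and 8.29 FPKM after venlafaxine and in saline sets II and I. Its venlafaxine libraries (8.26 to 8.97 FPKM) lay below those of saline set II (9.71 to 11.15 FPKM) and overlapped with saline set I. Against 8 saline libraries the lowest p was that of ENSMUST00000199585, the transcript the study calls Carp. It differed by 0.53 ± 0.28 (limma adjusted p = 0.83), with means of 1.48 FPKM after venlafaxine and 0.75 in the 8 saline libraries.

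None of the 78 genes of 12 cell type marker lists passed either limma test, and 5 had an unadjusted p under 0.05 against saline set II (6.41%, against 9.48% of all genes). The 9 striatal neuron markers had a median difference of -0.185 from the 8 saline libraries, with all 9 under 0. From saline set II the median was -0.28, with 8 under 0, which became 0.02 with 4 under 0 when saline set II replicate 4 was left out. The opioid peptide precursor Penk was at 21.8 FPKM in that library and 4.79 to 5.75 in the other 3 of saline set II. Excitatory neuron, astrocyte and microglial markers had medians of -0.02, 0.00 and -0.03. The interneuron transcription factor Dlx1 (0.39 ± 0.14, adjusted p = 0.26) and the smooth muscle actin Acta2 (0.45 ± 0.17, adjusted p = 0.34) had the largest differences above 0 in their lists.

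**Figure D4:**
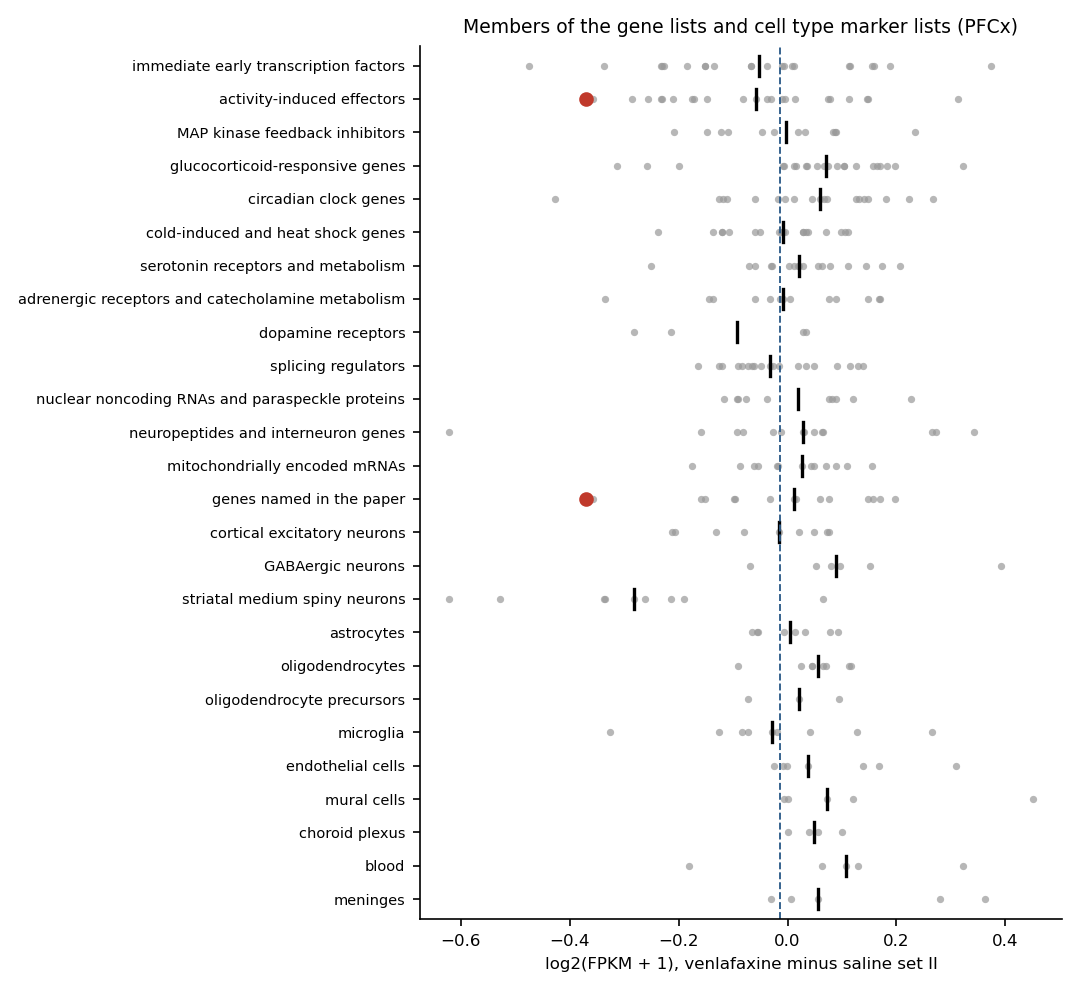
Difference in log2(FPKM + 1) between venlafaxine and saline set II in the PFCx for each member of 14 gene lists and the cell type marker lists (grey points), with the median of each list (black bar) and of all genes tested (dashed line). Homer1 (red points, in 2 lists) passed the test, and the striatal markers have the lowest median, -0.28.

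The responses to venlafaxine were set directly against those to mianserin and ketamine, given at 20 mg/kg each and killed at the same time, in the same fit and without a shared control. Mianserin blocks serotonin and adrenergic receptors, and ketamine blocks NMDA receptors. Of 75 genes named by rule, 9 differed between venlafaxine and mianserin, 7 lower and 2 higher after venlafaxine (0.272% of all genes were called). Since the 75 genes had been chosen on these libraries, nothing is read from their count against that share. Sgk1, a kinase induced by glucocorticoids, was at 15.1, 13.95, 11.9 and 16.1 FPKM after venlafaxine and had a mean of 33.3 after mianserin (difference -1.17, adjusted p = 4.2e-07). Nr4a1 had means of 3.47 and 9.85 FPKM (-1.28, adjusted p = 4.2e-07), Arc 6.07 and 14.96 (-1.15, adjusted p = 0.00037) and Junb 4.07 and 11.7 (-1.30, adjusted p = 0.00051). Ddit4, Nfkbia and Spry2 were also lower, at 2.77 against 6.07, 2.52 against 5.11 and 5.54 against 7.94 FPKM (adjusted p = 0.00037, 0.0034 and 0.0088). Clk1, a kinase of splicing factors, was higher after venlafaxine, at 18.5 against 13.3 FPKM (0.46, adjusted p = 0.031), as was the oligodendrocyte precursor gene Gpr17, at 3.33 against 2.38 (0.36, adjusted p = 0.024).

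Against ketamine none of the 75 genes passed in limma, where 2 of all genes did (0.00543%). The lowest adjusted p among them was 0.075, for Nr4a1, at 3.47 FPKM after venlafaxine and 6.22 after ketamine (-0.69). One of the genes that passed, chosen after its values were seen, was Trib1, a pseudokinase of MAP kinase signalling, at 1.44 FPKM after venlafaxine, 2.46 after ketamine (-0.51, adjusted p = 0.032), 2.69 after mianserin and 1.98 in saline set II. Several of the genes described above lay near venlafaxine after both other drugs. Rpl6 was at 340 FPKM after mianserin and 353 after ketamine, and 2410131K14Rik at 2.49 and 2.58, and neither differed from venlafaxine past the threshold.

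**Figure D5:**
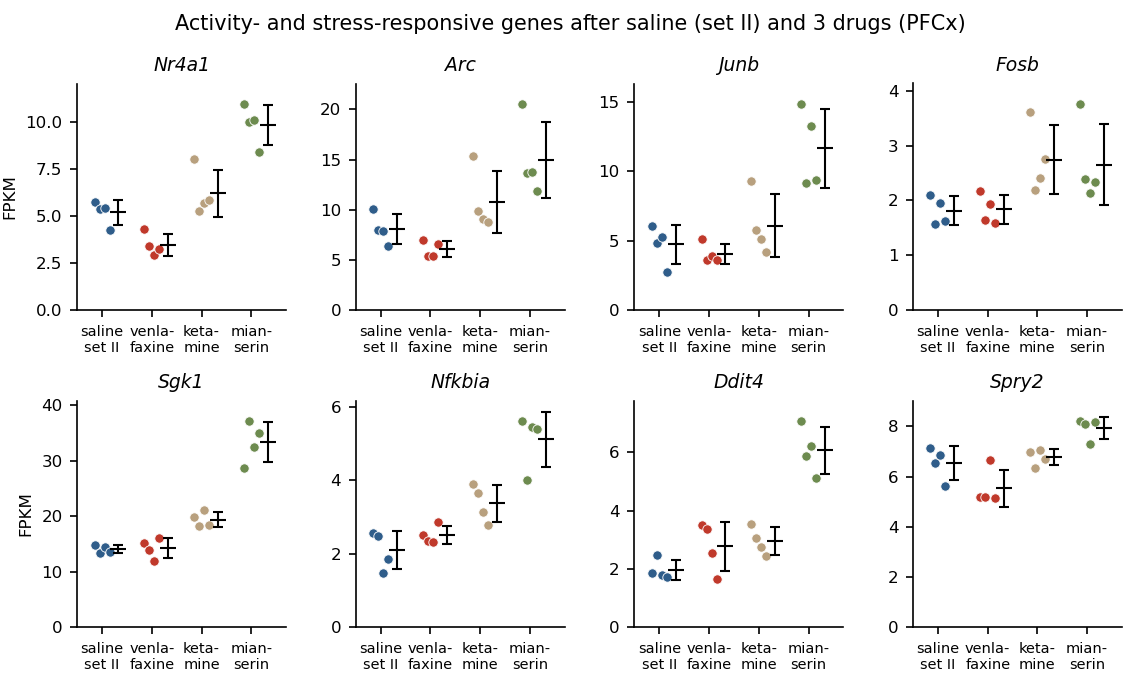
FPKM of 8 activity- and stress-responsive genes in the PFCx after saline (set II), venlafaxine, ketamine and mianserin, with 1 point per library and the mean ± SD (n = 4). The venlafaxine libraries lie near saline for Sgk1 (11.9 to 16.1 FPKM) and below most saline libraries for Nr4a1 (2.91 to 4.30 FPKM), and mianserin is the highest group for Sgk1, Nr4a1, Arc, Junb, Nfkbia, Ddit4 and Spry2.

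The effect of venlafaxine against saline set II was also compared between the PFCx and the NAc. Over 36989 genes, 54 differed between the tissues (0.146%), and none of the 75 named genes was among them. The lowest adjusted p was 0.060, for Bckdhb, with a difference of -0.60 in the PFCx and 0.08 in the NAc. Homer1 differed by -0.37 in the PFCx and -0.04 in the NAc (adjusted p = 0.19 for the difference between tissues). No difference between the tissues passed the threshold for these genes.

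Promoters, 250 bases before to 50 after a gene's start, were found for 54 of the 75 named genes in a RefSeq table (GRCm38.p6), and searched on both strands. The core AGAACA of glucocorticoid receptor sites was present for 11 of 54 (20.4%), against 21.3% of all 27025 genes with a promoter, and the E-box CACGTG for 4 (7.41%), against 8.09%. The AP-1 site TGACTCA was present for 2 of 54, against 5.95% of genes, and the CRE TGACGTCA for 1 (1.85%), against 2.03%. The EGR site GCGTGGGCG was present for none, against 0.707% of genes, and the heat shock element for 2 of 54, Uchl1 and Hspd1, against 0.662%. The full glucocorticoid response element was present in 3 of 32851 promoters, of which 1 belongs to Sgk1. These are matches of letters and not binding sites, and AGAACA is part of the full element. The named genes include list members that did not pass a test. Hspd1 was named from the heat shock list, and Sgk1 belongs to the glucocorticoid list. The choice of genes thus favours these matches, and nothing is read from their shares.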

How the data were processed

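The authors prepared libraries from ribosome-depleted total RNA (Ion Total RNA-seq Kit v2), sequenced them single-end on an Ion Proton, aligned reads to mm10 with TopHat2 2.0.1 and quantified transcripts with Cufflinks 2.2.1, which gave the deposited FPKM values of 112714 transcripts per library. The deposited coverage column of the same tables served only to estimate depth, from transcripts of at least 2000 bases and an FPKM of at least 5, and read counts were not used here. Whether counting used strand is not given in the sources used here.

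FPKM was analysed per transcript and summed per gene symbol (46686 symbols), as log2(FPKM + 1), leaving out features whose mean over the 32 PFCx libraries was under 0.1 FPKM. Contrasts were tested with limma 3.58.1 in R 4.3.3, with all PFCx libraries in the fit and Benjamini-Hochberg adjustment over all features (threshold 0.05), after a check on simulated data. Errors after ± are SE for differences and SD for levels. The venlafaxine libraries were set beside saline set II because the NAc tables of both list similar numbers of transcripts. This is a reading from the data that neither the labels nor the PFCx tables give.

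The named genes were those with a mean FPKM of at least 1 that passed both gene comparisons, filled to 6 per direction with genes outside the range of all 8 saline libraries by the lowest p against saline set II, the same for transcripts (filled to 4), the genes the study names, and per list the members that passed or the 2 with the lowest p. Predicted genes (Gm or Rik names) counted. Of the genes so named, 1 is not reported here. The members and lists were chosen with earlier results of these data known. Alternatives varied the pseudocount, filter, variance trend, libraries in the fit, scaling, control set, replicate block and each library left out. Gene positions and types come from GENCODE vM21 (GRCm38), and promoters from RefSeq. Same-numbered samples did not meet the rule for pairing.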

Additional observations from a re-analysis of the deposited data

Results flagged for a closer look

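Over 31 named features in 93 groups of libraries, 4 groups held a library far from the others, measured as its gap to the nearest library over the whole range. Chance alone gives such a gap in about 1 in 20 groups. Rpl6 in venlafaxine replicate 4 was at 533.6 FPKM, against 302 to 328.7 in the other 3. Bhlhe40, a repressor of the circadian clock, was at 20.55 FPKM in venlafaxine replicate 4, against 23.76 to 24.3. Sgk1 in saline set I replicate 2 was at 9.695 FPKM, against 12.47 to 15.58 in the other 7 saline libraries. Map6, a microtubule-stabilising protein gene, was at 14.02 FPKM in saline set II replicate 4, against 16.86 to 18.7 in the other 7.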

How the results depend on the processing

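Directions were stable for single features and the counts of calls were not. All of these features except Homer1 had every venlafaxine library on the same side of all 8 saline libraries. Their direction could therefore not reverse when a library was left out or the control set changed, and its stability is not a further result. Of the values for single features under the alternatives, 488 kept their direction and side of the threshold, 123 lost the threshold, 17 gained it and 1 reversed: Homer1, at 0.007835 with only saline set I as control (adjusted p = 0.98). Against 8 saline libraries the gene count of 2 became 0 with a pseudocount of 0.1, with a variance trend and with only the compared libraries in the fit, 3 without a filter, 4 at a mean FPKM of at least 1, and 1286 with only saline set I. The transcript count of 1 became 0 with a pseudocount of 0.1 and with only the compared libraries, 3 without a filter or at a mean FPKM of at least 1, 5 after rescaling to the 75th percentile, and 1135 with only saline set I. Against saline set II the gene count of 274 became 37, 116 and 42, and the transcript count of 163 became 5, 67 and 3, with a pseudocount of 0.1, a mean FPKM of at least 1 and only the compared libraries. The cause was not tested.

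Leaving out 1 library gave 0 to 15 genes and 0 to 7 transcripts against 8 saline libraries, the highest without saline set II replicate 4. Against saline set II it gave 56 genes (without saline set II replicate 1) to 463 (without replicate 2) and 10 transcripts (without venlafaxine replicate 1) to 374 (without saline set II replicate 2). Each library left out moved both counts against saline set II by more than 1.5 times.

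Pairing by replicate number was checked on 15695 genes, and deviations of same-numbered venlafaxine and saline set II libraries correlated at 0.273, -0.0986, 0.174 and 0.0341, with 3 of 4 best with their own number. A replicate block gave 0 genes and 0 transcripts against 8 saline libraries, and 459 genes and 248 transcripts against saline set II. FPKM tables without read counts limit the precision at low levels, where most of these calls lay.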
